A study of Mus musculus with 20 samples.

Results

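The genes Bcl6, Bach1, Bach2, Bcl11a, Prdm1, Zeb1, Zeb2 and Zbtb20 encode DNA-binding transcriptional repressors of the B-cell lineage and close relatives of these. They were chosen by name, each symbol was matched to its mouse Ensembl gene identifier, and they are 8 of the 56239 genes in the count table. Chromatin-associated RNA, which is enriched for transcripts still being made, was measured in the mouse pre-B line B3. The line had been transduced with a retrovirus carrying Ikaros-ERt2, a fusion of the zinc finger repressor Ikaros (gene Ikzf1) to a hormone-binding domain that keeps it from the nucleus until 4-hydroxytamoxifen is added. Untreated cells (0 h) were compared with cells held in 500 nM 4-hydroxytamoxifen for 30 min, 1, 2, 6, 12, 15, 18, 21 or 24 h, with 2 libraries at each of the 10 time points. All 20 libraries, 0 h included, came from the same transduced line, so the findings hold for 1 line. Cells given 4-hydroxytamoxifen without the fusion were not analysed here, and an effect of the drug itself and an effect of Ikaros cannot be told apart in these libraries. The labels number the libraries of a time point without saying whether they came from separate cultures, so the p-values below measure the spread between these libraries, which may be technical.

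BCL6 and ZBTB20 belong to the BTB zinc finger family, whose BTB domain recruits the corepressors NCOR1 and BCOR in the case of BCL6. BCL6 is best known from germinal centre B cells and is also made in pre-B cells after pre-B cell receptor signalling. BACH1 and BACH2 join a BTB domain to a basic leucine zipper and bind DNA as heterodimers with small MAF proteins. BACH2 holds B cells short of the plasma cell fate, in large part by repressing Prdm1, which encodes BLIMP1, the repressor that drives that fate. BCL11A is a zinc finger repressor needed for early B-cell development and known for silencing fetal globin genes in erythroid cells. ZEB1 and ZEB2 are zinc finger homeodomain proteins that bind E-boxes and were first known as repressors of epithelial genes.

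Between 33296158 and 46868954 counts were assigned to genes per library, with a median of 40943260. Levels are given as CPM, the counts of a gene relative to those of its library, after scaling the libraries by TMM, a method that makes the bulk of genes equal between libraries. A gene was called changed where the adjusted p was under 0.01 and the fold change above 2, by the quasi-likelihood test of edgeR, with p adjusted by the Benjamini-Hochberg method, over the 16601 genes that had at least 10 counts in at least 2 libraries. Of 12 pre-B markers 10 had enough counts to be tested. The summed level of 12 pre-B markers was 11415 and 11494 CPM at 0 h and 8307 to 16496 CPM after induction, although Rag1 and Rag2 were listed at 0 in every library. The cause of these zeros was not tested, and they were not read as absence. Of 23 annotated genes that overlap a repressor gene, 22 were also listed at 0 in every library. Most of the pre-B sum was Ebf1 (9752 and 9827 CPM at 0 h), and single markers moved apart, with 4 of the 10 called down at 2 h, and with 6 called up and 2 called down by 24 h. The surrogate light chain genes Igll1 and Vpreb1 fell from 167 and 170.1 CPM and from 16.8 and 18.3 CPM at 0 h to 0.895 and 1.07 CPM and to 0.353 and 0.388 CPM at 24 h (log2 -7.42 and -5.56). The part of these changes in the results on the repressor genes was not tested. The summed markers of T cells were 5.40 and 5.85 CPM at 0 h and 2.03 to 5.55 CPM after induction, those of myeloid cells were 0.194 to 1.62 CPM and those of erythroid cells 0.490 to 1.26 CPM over all libraries. The defining markers Cd3e, Cd3g and Cd4 of T cells, Itgam, Cd14 and Elane of myeloid cells and Hba-a1 of erythroid cells had 3 counts or fewer in every library. The summed level of 5 plasma cell markers was 21.7 and 22.8 CPM at 0 h and 22.8 to 36.1 CPM after induction, and at 0 h 21.1 and 22.2 CPM of it came from Xbp1, with each of the other 4 markers under 0.2 CPM. Ikzf1 itself read 4843 and 4837 CPM at 0 h and 9225 and 8378 CPM at 24 h, and reads from the introduced fusion and from the cells' own gene cannot be told apart in these counts.

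Of the 8 repressor genes, 7 passed the filter on low counts, and Prdm1, with 1 to 9 counts per library, did not. Over the whole time course 6 of the 7 were called changed, against 51.9% of all genes tested, and Zeb1 was not. Bcl11a fell, and Bcl6, Bach1, Bach2, Zeb2 and Zbtb20 rose. In bulk libraries fewer cells with a transcript and less of it per cell cannot be told apart. The order in which they crossed the 2-fold threshold differed. No member was called at 30 min, when 0.464% of all genes were called. At 1 h Bcl11a was called down, against 4.84% of genes called down. At 2 h Bach2 joined it as called up, against 6.25% of genes called up. Zeb2 was called up from 6 h (background 10.9%), Bcl6 and Zbtb20 from 12 h (13.2%) and Bach1 from 18 h (19.1%). At 24 h 1 member was down and 5 were up, so 6 of 7 were called where 40.1% of all genes tested were called either way and 20.1% down. Of all genes, 3329 were down and 3323 up at 24 h. With libraries scaled by their totals alone these numbers were 4259 and 2603, and the median of all genes stood at -0.27 in place of -0.01 on the log2 scale. In that scaling Bach1 stood at 0.91, Bcl6 at 1.63, Zbtb20 at 1.82, Zeb2 at 2.41, Bach2 at 3.22 and Bcl11a at -3.06. Measured from the lower median of all genes, these log2 differences were 1.17 for Bach1, 1.89 for Bcl6 and 2.09 for Zbtb20. They were 2.68 for Zeb2, 3.49 for Bach2 and -2.80 for Bcl11a. Measuring from the median restores nearly the centring that TMM gives, so these last values are no separate check. At 24 h neither library lay within the 0 h range for any of the 7 tested members, which also held for 89.2% of all genes tested.

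**Figure D1:**
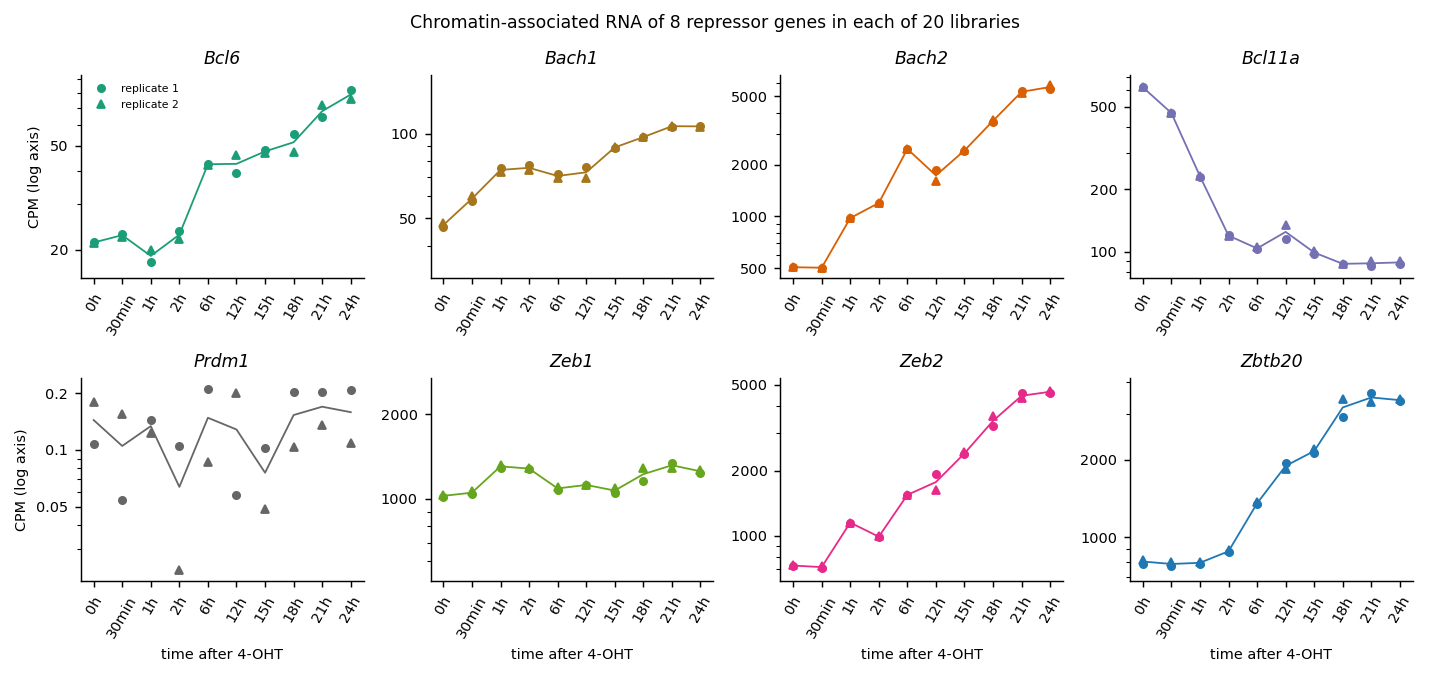
Level of each repressor gene (CPM, log axis) at each time point after 4-hydroxytamoxifen, with 1 point per library and a line through the mean of the 2 libraries. Bcl11a descends from 621 and 623 CPM to 87.1 and 90.8 CPM, Bach2 climbs from 505 and 508 CPM to 5500.5 and 5812 CPM with a dip at 12 h, Zeb1 stays between 1019 and 1347 CPM, and Prdm1 stays at or under 0.210 CPM.

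Windows of 250 bases before a RefSeq transcript start (build GRCm38.p6) are shown for the member that fell, for the one that rose the most and for a member that shares a letter match with the first. They are printed on the strand of the gene from 5′ to 3′, and capitals mark the letters TGGGAA or their reverse complement TTCCCA, the core of the motif bound by the Ikaros family. Bcl11a (chr11:24080445-24080694, plus strand) and Zbtb20 (chr16:43247034-43247283, plus strand) each held 1 match, and Bach2 (chr4:32417185-32417434, plus strand) held none. The authors counted the shorter letters GGAA and GGGA and their reverse complements as Ikaros motifs. These were not counted here, and all 3 windows hold GGAA and GGGA. All 3 windows lie inside the annotated gene, before an internal start. The Bcl11a window includes 25 bases of an annotated exon and the other two none.
Bcl11a: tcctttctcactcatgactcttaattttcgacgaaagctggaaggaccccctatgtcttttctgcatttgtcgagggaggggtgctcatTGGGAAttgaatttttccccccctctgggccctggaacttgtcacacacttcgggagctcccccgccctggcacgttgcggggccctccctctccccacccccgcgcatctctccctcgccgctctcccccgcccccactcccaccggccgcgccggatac
Bach2: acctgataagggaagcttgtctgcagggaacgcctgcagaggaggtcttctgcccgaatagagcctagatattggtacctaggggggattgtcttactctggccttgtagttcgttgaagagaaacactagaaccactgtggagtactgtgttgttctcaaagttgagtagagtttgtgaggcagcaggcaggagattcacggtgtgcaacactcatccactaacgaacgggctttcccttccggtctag
Zbtb20: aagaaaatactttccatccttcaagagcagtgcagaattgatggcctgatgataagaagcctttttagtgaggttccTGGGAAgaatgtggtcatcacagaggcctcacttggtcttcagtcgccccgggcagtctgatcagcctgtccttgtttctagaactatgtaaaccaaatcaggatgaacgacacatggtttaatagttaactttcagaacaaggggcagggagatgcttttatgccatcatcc
The matches began 161 bases before the start for Bcl11a and 173 bases before it for Zbtb20. Over the 11 windows read for 7 members (none was read for Zeb1), 3 held TGGGAA or TTCCCA, the third belonging to Prdm1, and 21.6% of 32851 mouse promoter windows of the same length held it. The 11 windows are not independent. Zeb2 supplied 4 of them, and its windows 2 and 3 overlap for most of their length and lie wholly in annotated exons. The first transcribed bases of Bcl6 window 2 and Zeb2 window 1 were not found in the GENCODE transcripts of these genes. The heptamer TGACTCA (reverse complement TGAGTCA), the core shared by AP-1 and BACH sites, occurred in 1 of the 11 windows, at Zeb2, and in 4.46% of all windows. The ZEB E-box CACCTG (reverse complement CAGGTG) occurred in 1 of 11, at Prdm1, and in 17.2% of all. CCTAGAA (reverse complement TTCTAGG), from the BCL6 motif, and GAAAGTG (reverse complement CACTTTC), from the BLIMP1 motif, were in none of the 11 and in 3.65% and 4.01% of all. Of the members with TGGGAA or TTCCCA in a window, Bcl11a fell, Zbtb20 rose and Prdm1 was not tested.

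Bcl11a (ENSMUSG00000000861, GRCm38 chr11:24078056-24174123, plus strand) was the only member that fell, and most of its fall was complete by 2 h. Its libraries read 621 and 623 CPM at 0 h, 465 and 469.7 CPM at 30 min, 231 and 233 CPM at 1 h and 121 and 119 CPM at 2 h. Both replicates of each time point lay below both of the one before, with gaps far wider than the distance between replicates. Against 0 h the log2 difference was -0.41 (SE 0.0465, edgeR adjusted p = 1.96e-06) at 30 min, short of 2-fold. It reached -1.42 (SE 0.0469, edgeR adjusted p = 6.13e-16) at 1 h and -2.38 (SE 0.0480, edgeR adjusted p = 1.35e-19) at 2 h, a 5.19-fold lower level. The later libraries formed a low plateau. They read 103 and 105 (6 h), 115 and 134 (12 h), and 97.5 and 101 (15 h) CPM, then 87.6 and 87.5 (18 h), 85.9 and 90.3 (21 h), and 87.1 and 90.8 (24 h) CPM. At 12 h the level was above that at 6 h by 0.27 on the log2 scale (edgeR adjusted p = 0.000211), under 2-fold, and the 2 libraries of 12 h were farther apart than those of any other late time point. At 24 h the level was 89.0 ± 2.63 CPM (SD, n = 2), 6.99-fold below the 622 ± 1.07 CPM (SD, n = 2) of 0 h, with a log2 change of -2.81 (SE 0.0490, edgeR adjusted p = 1.32e-21). Antisense genes cover part of Bcl11a, and 29.2% of its length is shared with them. They were listed at 0 counts in every library, so how reads from the shared stretches were counted is not known.

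Bach2 (ENSMUSG00000040270, GRCm38 chr4:32238804-32586108, plus strand) showed the largest rise of the members, in 2 phases with a dip between them. Its libraries read 505 and 508 (0 h) and 503 and 503 (30 min) CPM with no difference that passed the test (log2 difference -0.01, edgeR adjusted p = 0.938). They then read 979 and 977 (1 h), 1201 and 1194 (2 h), and 2456 and 2479 (6 h) CPM. The first step came between 30 min and 1 h, where the log2 difference was 0.96 (SE 0.0448, edgeR adjusted p = 3.92e-13), just short of 2-fold. Between 2 and 6 h the step was 1.04 (SE 0.0444, edgeR adjusted p = 1.21e-13), called up, where 3.91% of all genes were called up in that interval. At 12 h the libraries read 1856 and 1607 CPM, both below both libraries of 6 h. This difference of -0.51 (SE 0.0443, edgeR adjusted p = 9.03e-09) was under 2-fold, and the level at 15 h, 2401 and 2436 CPM, was again close to that at 6 h. Without single libraries the difference was -0.62 to -0.41. The dip rests on the 2 libraries of 12 h, which also lay apart from each other for Zeb2 (1922 and 1619.9 CPM). A feature of those libraries and a change in the cells cannot be told apart. The second phase ran through 3546 and 3651 (18 h), 5387 and 5218 (21 h), and 5500.5 and 5812 (24 h) CPM. The step from 21 to 24 h, 0.09 on the log2 scale, did not pass the test (edgeR adjusted p = 0.16). At 24 h Bach2 stood at 5656 ± 220.2 CPM (SD, n = 2) against 507 ± 2.41 CPM (SD, n = 2) at 0 h, an 11.2-fold rise (log2 change 3.48, SE 0.0446, edgeR adjusted p = 2.47e-23). It took 0.0530% and 0.0531% of all counts in the libraries of 0 h and 0.485% to 0.506% at 24 h, and moved from rank 243 to rank 11 among all genes by counts.

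Bach1 (ENSMUSG00000025612, GRCm38 chr16:87698945-87733346, plus strand), the broadly expressed paralog of Bach2 and a haem-regulated repressor of oxidative stress genes, was already higher at 30 min but rose far less. Its libraries read 46.6 and 48.1 (0 h), 57.4 and 60.04 (30 min), 75.6 and 73.0 (1 h), and 77.1 and 74.1 (2 h) CPM. The log2 difference from 0 h was 0.31 (SE 0.0460, edgeR adjusted p = 5.69e-05) at 30 min and 0.65 (SE 0.0453, edgeR adjusted p = 1.07e-10) at 1 h, neither of them 2-fold. At the next time points the libraries read 71.6 and 69.8 (6 h) and 76.3 and 69.5 (12 h) CPM. No step between neighbouring time points from 1 to 12 h passed the test. A second increase followed, with 89.1 and 89.5 (15 h) and 96.9 and 97.4 (18 h) CPM and then 106 and 107 (21 h) and 106 and 106 (24 h) CPM. The change passed 2-fold at 18 h (log2 1.04, SE 0.0449, edgeR adjusted p = 5.18e-15) and was 1.16 (SE 0.0450, edgeR adjusted p = 5.6e-16) at 24 h. Scaled by library totals alone the differences at 18, 21 and 24 h were 0.91, 0.93 and 0.91, which are under 2-fold. Per kb of gene body, Bach2 stood at 1.06 ± 0.0187 times Bach1 at 0 h, at 3.46 ± 0.0853 times at 6 h and at 5.28 ± 0.224 times at 24 h (SD of the ratio, n = 2). The size of this ratio depends on the length used, and its change over time does not. Per kb of summed exons the 0 h libraries read 50.8 and 51.1 CPM for Bach2 and 7.54 and 7.78 CPM for Bach1.

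Bcl6 (ENSMUSG00000022508, GRCm38 chr16:23965052-23988852, minus strand) stood low up to 2 h, rose between 2 and 6 h and rose again late. Its libraries read 21.5 and 21.1 (0 h), 23.0 and 22.5 (30 min), 17.9 and 19.97 (1 h), and 23.6 and 22.1 (2 h) CPM. None of the 3 early time points differed from 0 h at an adjusted p under 0.01, the smallest being an edgeR adjusted p = 0.105 at 1 h. Between 2 and 6 h the level was higher by 0.90 on the log2 scale (SE 0.0802, edgeR adjusted p = 1.08e-08). It then read 42.7 and 42.4 (6 h), 39.4 and 45.9 (12 h), 48.2 and 47.0 (15 h), and 55.7 and 47.6 (18 h) CPM. This stretch sat close to the 2-fold threshold. The log2 difference from 0 h was 0.996 at 6 h, not called, and 1.00 at 12 h (SE 0.0807, edgeR adjusted p = 3.69e-10), called by a margin smaller than the SE, and it was 0.89 without the second library of 12 h and 0.99 without the second of 0 h. Without the first library of 0 h or the second of 6 h the difference at 6 h was called, at 1.00. A further rise followed, to 64.4 and 71.5 (21 h) and 81.6 and 75.8 (24 h) CPM. At 24 h Bcl6 stood at 78.7 ± 4.13 CPM against 21.3 ± 0.249 CPM at 0 h (SD, n = 2 each), a 3.69-fold rise (log2 change 1.88, SE 0.0784, edgeR adjusted p = 2.01e-15). The step from 18 to 21 h, 0.40, passed the adjusted p threshold without reaching 2-fold (edgeR adjusted p = 0.000469) and was 0.32 without the second library of 21 h (edgeR adjusted p = 0.0221). The step from 21 to 24 h, 0.21, did not pass it (edgeR adjusted p = 0.0531).

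Zbtb20 (ENSMUSG00000022708, GRCm38 chr16:42875881-43642602, plus strand), a BTB zinc finger repressor close to BCL6 in structure, rose late and smoothly. Its libraries read 792 and 821 (0 h), 777 and 801 (30 min), 789 and 806 (1 h), and 876 and 892 (2 h) CPM. None of these early time points differed from 0 h at an adjusted p under 0.01, with an edgeR adjusted p = 0.0339 at 2 h. From 2 h on both libraries of each time point lay above the 0 h libraries. From 6 h the libraries read 1344 and 1369 (6 h), 1948 and 1843 (12 h), and 2125 and 2204 (15 h) CPM, and later 2945 and 3446 (18 h), 3624 and 3364 (21 h), and 3372 and 3447 (24 h) CPM. The log2 difference was 0.75 (SE 0.0514, edgeR adjusted p = 3.66e-11) at 6 h and crossed 2-fold at 12 h with 1.23 (SE 0.0514, edgeR adjusted p = 7.34e-15). The steps after 18 h did not pass the test, with 0.13 from 18 to 21 h (edgeR adjusted p = 0.0869) and -0.04 from 21 to 24 h (edgeR adjusted p = 0.71). At 24 h Zbtb20 stood at 3409.8 ± 52.7 CPM against 807 ± 20.1 CPM at 0 h (SD, n = 2 each), a 4.23-fold rise (log2 change 2.08, SE 0.0514, edgeR adjusted p = 3.71e-19). The libraries of 18 h were the farthest apart of its time points.

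The ZEB paralogs parted after induction. Zeb2 (ENSMUSG00000026872, GRCm38 chr2:44983632-45117395, minus strand) read 726 and 729 (0 h), 707 and 724 (30 min), 1151 and 1149 (1 h), and 987 and 992 (2 h) CPM. Both libraries of 1 h lay above both of 2 h, so the early increase was partly lost again. The log2 difference from 0 h was 0.66 (SE 0.0546, edgeR adjusted p = 1.8e-09) at 1 h, and the step from 1 to 2 h was -0.22 (SE 0.0546, edgeR adjusted p = 0.00407), neither of them 2-fold. The adjusted p of that step was above 0.01 whichever of its 4 libraries was left out. From 6 h the gene was called up at each time point. Its libraries read 1542 and 1548 (6 h), 1922 and 1619.9 (12 h), and 2376 and 2431 (15 h) CPM, and later 3212 and 3584 (18 h), 4548 and 4329 (21 h), and 4588 and 4676 (24 h) CPM. At 24 h the level was 4632 ± 62.7 CPM against 728 ± 2.37 CPM at 0 h (SD, n = 2 each), a 6.36-fold rise (log2 change 2.67, SE 0.0545, edgeR adjusted p = 2.02e-20). The last step, from 21 to 24 h, was 0.06 and did not pass the test (edgeR adjusted p = 0.494).

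Zeb1 (ENSMUSG00000024238, GRCm38 chr18:5591860-5775467, plus strand) stayed within a narrow range. Its libraries read 1019 and 1031 (0 h), 1041 and 1064 (30 min), 1290.4 and 1321 (1 h), and 1274 and 1288 (2 h) CPM, and then 1079.7 and 1099.5 (6 h), 1120.2 and 1122 (12 h), and 1051 and 1091 (15 h) CPM. The level was thus somewhat higher at 1 and 2 h and within 0.13 of 0 h on the log2 scale from 6 to 15 h. It read 1159 and 1289.8 (18 h), 1347 and 1287 (21 h), and 1236 and 1271 (24 h) CPM at the end. The test over the whole time course gave an edgeR adjusted p = 9.26e-09, but the largest log2 difference from 0 h was 0.36 (SE 0.0396) at 21 h and the gene was called at no time point. At 24 h the difference was 0.29 (SE 0.0396, edgeR adjusted p = 8.99e-07), and it was 0.03 with libraries scaled by their totals alone. Per kb of gene body Zeb2 stood at 0.974 ± 0.00471 times Zeb1 at 0 h, at 1.95 ± 0.0197 times at 6 h and at 5.07 ± 0.0297 times at 24 h (SD of the ratio, n = 2). The size of this ratio also depends on the length used. Per kb of summed exons the 0 h libraries read 36.4 and 36.6 CPM for Zeb2 and 99.3 and 100.4 CPM for Zeb1.

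Prdm1 (ENSMUSG00000038151, GRCm38 chr10:44437177-44528501, minus strand), the BLIMP1 gene, was at the edge of detection throughout. The untreated libraries had 5 and 8 counts, those of 2 h had 4 and 1, those of 6 h had 9 and 4, and those of 24 h had 7 and 4, which is 0.108 and 0.180 CPM at 0 h and 0.209 and 0.109 CPM at 24 h. The ranges of 0 h and 24 h overlapped, and with fewer than 10 counts in each of the 20 libraries the gene was not tested. A difference in Prdm1 was therefore not detectable at this depth.

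**Figure D2:**
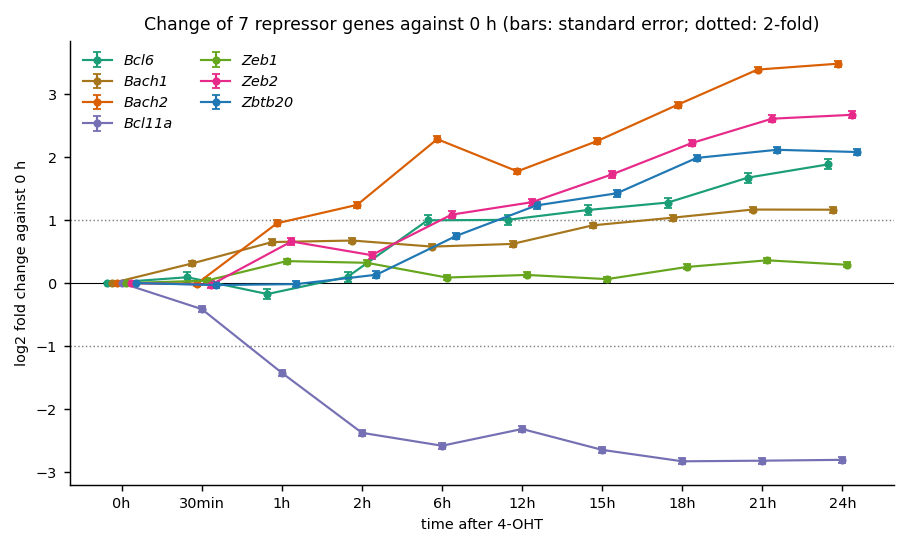
Log2 fold change against 0 h of the 7 tested repressor genes at each time point, with bars for the standard error of the edgeR model and dotted lines at 2-fold. Bcl11a passes below the lower line at 1 h and ends at -2.81, Bach2 passes above the upper line at 2 h and ends at 3.48, and Zeb1 stays at 0.36 or less.

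The steps between neighbouring time points placed the changes in different intervals. Called steps were rare. Of the 7 members only Bcl11a was called down between 30 min and 1 h (log2 -1.01, SE 0.0471, edgeR adjusted p = 3.77e-13), where 3.08% of all genes were, and only Bach2 was called up between 2 and 6 h. Both sat within 0.05 of the 2-fold threshold on the log2 scale. Counting every step with an adjusted p under 0.01 whatever its size, Bcl11a was lower in each step up to 6 h and again in the steps to 15 and 18 h, and higher in that to 12 h. Bcl6, Bach2, Zeb2 and Zbtb20 were each higher in the step from 2 to 6 h, by 0.90, 1.04, 0.64 and 0.62. In the step from 6 to 12 h they went separate ways, with Bach2 lower, Zeb2 (0.20, edgeR adjusted p = 0.0066) and Zbtb20 (0.48, edgeR adjusted p = 1.79e-07) higher and Bcl6 at 0.01 (edgeR adjusted p = 0.953). The Zeb2 step from 6 to 12 h rested on single libraries, being 0.07 without the first library of 12 h (edgeR adjusted p = 0.272) and 0.32 without the second, and its adjusted p was above 0.01 without either library of 6 h. The adjusted p of the Bcl11a steps to 6 and 18 h was above 0.01 whichever of the libraries compared was left out. From 21 to 24 h no member had an adjusted p under 0.01, the smallest being an edgeR adjusted p = 0.0531 for Bcl6.

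**Figure D3:**
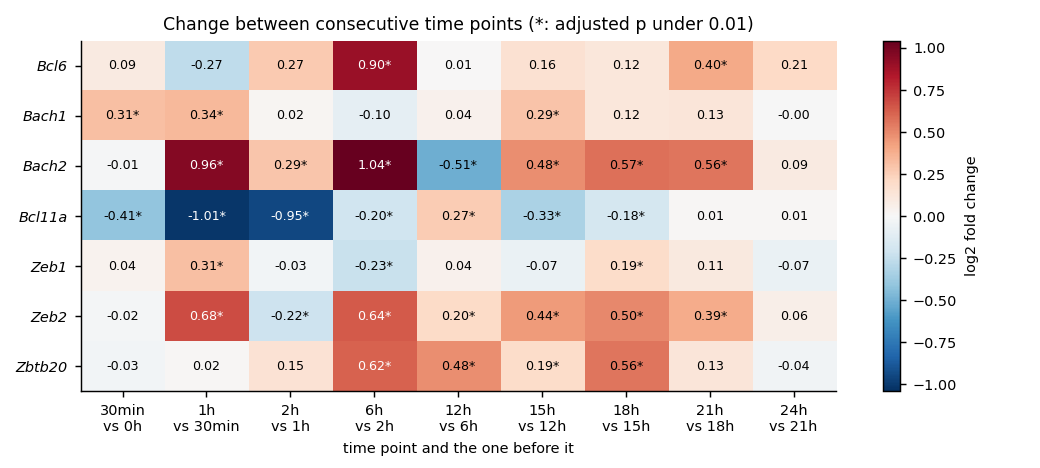
Log2 fold change of each tested repressor gene (rows) between each time point and the one before it (columns), red for higher and blue for lower, with a star where the adjusted p is under 0.01. The Bcl11a row is blue with stars through 6 h, the column of 6 h against 2 h is red with stars for Bcl6, Bach2, Zeb2 and Zbtb20, and the last column has no star.

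The time at which a member first crossed the midpoint between 0 h and its extreme, read by linear interpolation of the mean log2 CPM, was 59.7 min for Bcl11a and 54.1 min for Bach1. It was 3.91 h for Bach2, 5.76 h for Bcl6, 9.82 h for Zbtb20 and 12.4 h for Zeb2. Bach1 crossed early but then stood near its midpoint, with log2 differences from 0 h of 0.58 to 0.67 from 1 to 12 h. Its extreme was 1.17 at 21 h. In the 2 replicate series taken alone the times were 1.00 and 0.998 h for Bcl11a, 0.870 and 0.951 h for Bach1, and 3.83 and 4.00 h for Bach2. They were 5.87 and 5.65 h for Bcl6, 9.75 and 10.2 h for Zbtb20, and 10.6 and 13.0 h for Zeb2. The ranges of these pairs did not overlap between neighbouring genes in this order. The order holds for the log2 scale only. On linear CPM, where the late, large values weigh more, the midpoint fell at 0.739 h for Bcl11a and at 12.7 to 16.8 h for the 5 members that rose.

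Levels of different genes can be compared only per length, and since the counts include introns the level was divided by the length of the gene body. At 0 h Bcl11a stood first with 6.47 ± 0.0111 CPM per kb, followed by Zeb1 with 5.58 ± 0.0452 and Zeb2 with 5.44 ± 0.0177 CPM per kb (SD, n = 2). A wide gap followed, to Bach2 with 1.46 ± 0.00693, Bach1 with 1.38 ± 0.0308, Zbtb20 with 1.05 ± 0.0263 and Bcl6 with 0.896 ± 0.0105 CPM per kb. Prdm1 stood last with 0.00158 ± 0.000558 CPM per kb. No neighbours in this order overlapped, though the distance between Bach2 and Bach1 and that between Zeb1 and Zeb2 were each small. At 6 h Zeb2, with 11.5 ± 0.0322 CPM per kb, and Bach2, with 7.10 ± 0.0463, had passed Zeb1, and Bcl11a, with 1.08 ± 0.0181, was seventh. Bcl6 (1.79 ± 0.00863) and Zbtb20 (1.77 ± 0.0235) overlapped at that time. At 24 h the order ran from Zeb2 with 34.6 ± 0.469 and Bach2 with 16.3 ± 0.634 to Zeb1 with 6.83 ± 0.132, Zbtb20 with 4.45 ± 0.0688, Bcl6 with 3.31 ± 0.174, Bach1 with 3.08 ± 0.0109 and Bcl11a with 0.926 ± 0.0274 CPM per kb. Bcl11a had thus moved from the first place to the seventh, with only Prdm1 below it. Per kb of summed exons the order at 0 h was another, with Zeb1 first at 99.8, Bach2 at 51.0 and Bcl11a at 47.2 CPM per kb. Together the 8 genes took 0.392% and 0.395% of all counts in the libraries of 0 h and 1.32% and 1.35% at 24 h.

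**Figure D4:**
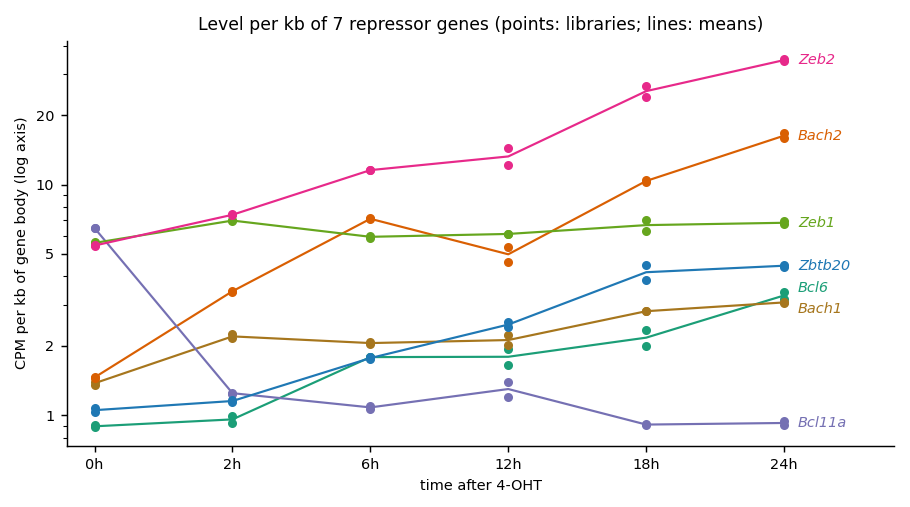
Level of 7 repressor genes in CPM per kb of gene body (log axis) at 6 of the time points, with points for libraries and lines through the means. Bcl11a is the highest at 0 h with 6.47 CPM per kb and the lowest of the 7 at 24 h with 0.926, while Zeb2 and Bach2 end at 34.6 and 16.3 CPM per kb.

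Across the 20 libraries the log2 levels of the members that rose moved together, with Pearson's r from 0.80 for Bcl6 and Bach1 to 0.97 for Zeb2 and Zbtb20, and Bcl11a ran against them with r from -0.77 with Bcl6 to -0.91 with Bach2. These r describe a shared time course sampled in pairs of libraries at 10 time points, not independent samples. Among 5773 changed genes averaging at least 1 CPM, those most like each member were Rai14 (r = 0.992), Zan (0.992) and Hs3st3b1 (0.988) for Bcl11a. They were Rasa2 (0.997), Rab11a (0.994) and Cpm (0.994) for Bach2, and Pde3b (0.981), Mtmr12 (0.981) and Rel (0.980) for Bach1. For Bcl6 they were Adcy1 (0.987), Rbms1 (0.985) and Arid5a (0.984). For Zeb2 they were Fam214a (0.996), Jmy (0.996) and Gpcpd1 (0.994), and for Zbtb20 Mbd5 (0.997), Nfia (0.997) and Phf21a (0.996).

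Few of the corepressors through which these factors act were called. Of 18 tested, 1 was called down at 2 h and 2 at 24 h, and none was called up at either time (median log2 change 0.04 at 24 h, against -0.01 over all genes tested). At 2 h, 6.91% of all genes were called down and 6.25% up, and at 24 h 20.1% were called down and about as many up. Bcor, a corepressor bound by the BCL6 BTB domain, read 125 and 127 CPM at 0 h and 34.3 and 34.9 CPM at 24 h (log2 -1.87, SE 0.0610, edgeR adjusted p = 2.77e-17).

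Of 19 other BTB zinc finger genes tested, 1 was down and 2 up at 2 h, and 2 were down and 5 up at 24 h (median 0.23 at 24 h). Among all genes tested, 6.91% were called down and 6.25% up at 2 h. At 24 h 20.1% were called down and 40.1% either way. The same shares apply to the lists that follow, and whether any list departed from them was not tested. Zbtb4, which encodes a binder of methylated DNA, read 2.00 and 2.14 CPM at 0 h and 16.9 and 18.3 CPM at 24 h (log2 3.08, SE 0.114, edgeR adjusted p = 3.43e-17). Zbtb7b, which specifies the CD4 lineage in T cells, and Zbtb38 rose with log2 changes of 1.46 and 1.38, and Bcl6b (under 1 CPM) and Zbtb5, named after their values were seen, rose with 1.87 and 1.37. Zbtb32, a repressor known from plasma cells and memory B cells, read 11.9 and 12.3 CPM at 0 h, 5.07 and 5.14 CPM at 2 h and 4.26 and 4.75 CPM at 24 h (log2 -1.42, SE 0.0979, edgeR adjusted p = 7.9e-12). Zbtb11 fell to a log2 change of -1.02 at 24 h, and Zbtb1, named after its values were seen, was up at 2 h with 1.02.

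Of 15 tested small MAF partners, NRF family members and oxidative stress genes of the kind that BACH1 represses, none was called at 2 h, and 4 fell and none rose at 24 h (median -0.46). Slc7a11, the cystine importer, read 70.1 and 70.5 CPM at 0 h and 7.69 and 8.98 CPM at 24 h (log2 -3.07, SE 0.0799, edgeR adjusted p = 1.92e-19). Nqo1, a quinone reductase, and Txnrd1, a thioredoxin reductase, fell with log2 changes of -2.02 and -1.17, and the small MAF gene Mafg, named after its values were seen, with -1.04. Hmox1, the haem oxygenase gene classically repressed by BACH1, read 3.56 and 3.89 CPM at 0 h and 3.45 and 3.99 CPM at 24 h (log2 -0.01, edgeR adjusted p = 0.967) and is also named outside the rule.

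Of 19 tested genes known as BCL6-repressed in germinal centre cells, 6 were down and 1 up at 2 h, when Bcl6 itself was not called (log2 0.10), and 8 were down and 2 up at 24 h (median -0.32). Ccnd2, a D-type cyclin, read 126 and 129 CPM at 0 h, 15.5 and 16.6 CPM at 2 h and 5.31 and 5.59 CPM at 24 h (log2 -4.55, SE 0.107, edgeR adjusted p = 1.34e-20). Myc, the growth regulator, read 62.1 and 63.6 CPM at 0 h, 26.7 and 27.5 CPM at 2 h and 4.40 and 5.55 CPM at 24 h (log2 -3.67, SE 0.129, edgeR adjusted p = 1.54e-17). Both genes were called down at 2 h, and whether BCL6 had a part in their fall was not tested. Chek1, a checkpoint kinase, was not called at 2 h and fell by 24 h (log2 -2.95). The cell cycle inhibitor gene Cdkn1b rose with 2.49, and S1pr1, a receptor that guides lymphocytes out of tissues, rose from 0.0648 and 0.0900 CPM to 4.21 and 4.53 CPM (log2 5.77, SE 0.645, edgeR adjusted p = 9.23e-13), from a handful of counts at 0 h. Its call at 2 h (log2 2.16, edgeR adjusted p = 0.00494), the 1 gene up at that time, was lost without either library of 0 h or the second of 2 h.

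Of 10 tested genes that BLIMP1 represses, 1 was down at 2 h, and none was down and 5 were up at 24 h (median 0.64). Foxo1, which drives recombinase expression in pre-B cells, read 1094 and 1095 CPM at 0 h and 7239 and 7293 CPM at 24 h (log2 2.73, SE 0.0394, edgeR adjusted p = 8.81e-23). Pax5, the B-lineage commitment factor, rose with a log2 change of 1.88. Cd22 and Cd79a, named after their values were seen, rose with 1.29 and 1.12, and Id3, also named so and under 0.5 CPM, was down at 2 h (log2 -1.57, edgeR adjusted p = 0.00855), a call lost when any one of the 4 libraries compared was left out. Of 8 tested plasma cell genes, 1 was down and 2 up at both 2 and 24 h (median 0.20 at 24 h). Jchain, the joining chain of polymeric antibodies, read 0.158 and 0.173 CPM at 0 h and 5.37 and 6.20 CPM at 24 h (log2 5.10, SE 0.426, edgeR adjusted p = 6.5e-14), and Slamf7, a surface receptor, rose with 1.66. Sdc1, the plasma cell surface marker, had 1 to 8 counts per library, and Xbp1, the secretory regulator, was at -0.06 (edgeR adjusted p = 0.374). Fkbp11, under 1 CPM and named after its values were seen, was down at 24 h (log2 -1.07, edgeR adjusted p = 0.00244), a call lost without the second library of 0 h or the first of 24 h.

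Of 12 tested factors that regulate Bcl6 or Prdm1, 1 was down at 2 h, and none was down and 5 were up at 24 h (median 0.73). Foxo1, Pax5 and Spib stand in this list and in that of BLIMP1, and Irf4, the 1 gene down at 2 h, stands also in the plasma cell list, where it is again the 1 gene down at 2 h, so the counts of the lists are not independent. Besides Foxo1 and Pax5, the FOXO factor gene Foxo4 read 4.70 and 5.03 CPM at 0 h and 19.8 and 20.5 CPM at 24 h (log2 2.05, SE 0.115, edgeR adjusted p = 2.34e-13), and Stat3 and Stat5b, named after their values were seen, rose with 1.76 and 1.33. Irf4, which acts on both genes and was also named so, read 9.52 and 9.75 CPM at 0 h, 1.41 and 1.41 CPM at 2 h and 4.92 and 5.86 CPM at 24 h, a fall at 2 h (log2 -2.77, SE 0.172, edgeR adjusted p = 9.43e-13) and a value of -0.83 at 24 h that was not called. Of 10 epithelial genes that ZEB factors repress, 6 had enough counts to be tested, all of them under 10 CPM, and Cdh1 and Epcam had at most 2 counts per library. At 2 h 1 was down, and at 24 h 2 were down and 1 up (median 0.01). Esrp1, a splicing regulator, read 3.11 and 3.17 CPM at 0 h and 1.34 and 1.41 CPM at 24 h (log2 -1.19, SE 0.170, edgeR adjusted p = 9.91e-07), and Cldn7 (down) and Crb3 (up), both named after their values were seen, were near or under 1 CPM. The 2 down at 24 h became 1 without the second library of 0 h or either library of 24 h.

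**Figure D5:**
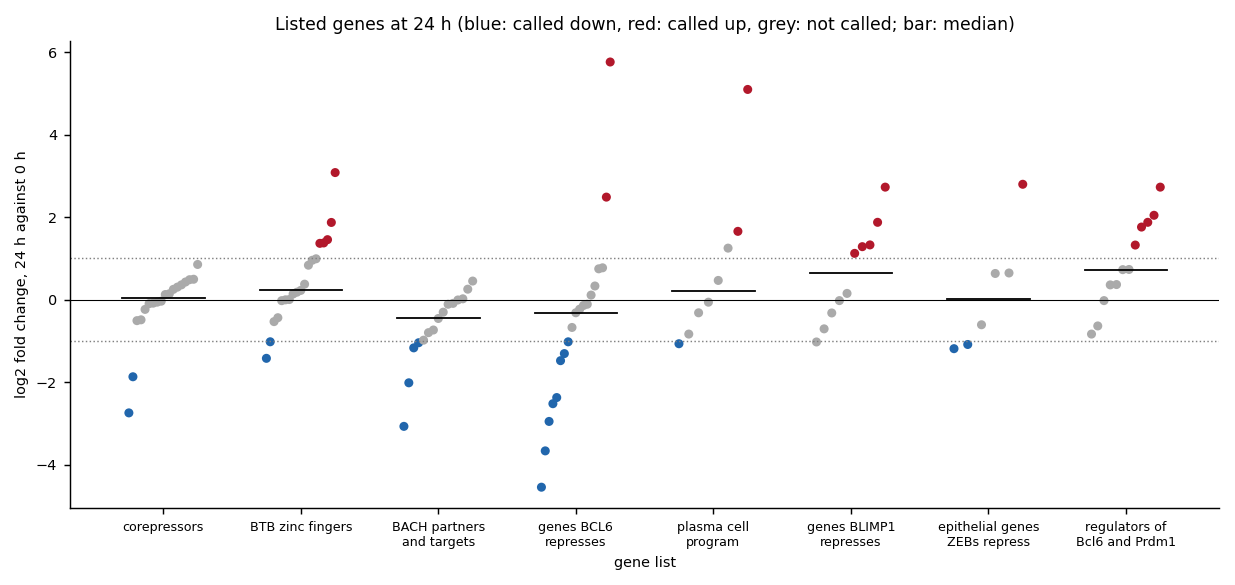
Log2 fold change at 24 h against 0 h of each tested gene of the 8 lists, with 1 point per gene, blue for called down, red for called up and grey for not called, a bar at the median and dotted lines at 2-fold. The list of BACH partners and targets holds 4 blue points and no red one, the BLIMP1 list 5 red points and no blue one, and the genes BCL6 represses range from -4.55 to 5.77. Among all genes tested, 20.1% were called down and 40.1% either way at 24 h, and no list was tested against these shares.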

How the data were processed

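Chromatin-associated RNA from B3 cells was sequenced by the authors as directional, rRNA-depleted paired-end libraries and aligned to GRCm38 (STAR, through nf-core/rnaseq), and reads were assigned to genes with featureCounts. Base calling with CASAVA 2.17 is named in the submitters' processing notes. The deposited values are raw counts per gene and include intronic reads. The annotation release is not given in the sources used here, and neither is the strand setting nor how reads in overlapping genes were treated. Of 23 annotated genes that overlap a repressor gene, 22 were listed at 0 counts in every library.

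From the counts of all 20 libraries 1 edgeR 4.0.16 model was fitted in R 4.3.3, with TMM scaling and time point as a factor, over the 16601 genes that reached 10 counts in 2 or more libraries. The quasi-likelihood test was applied to the whole time course, to each time point against 0 h and to each against the one before, all of them sharing control or neighbouring libraries. P-values were adjusted by Benjamini-Hochberg over all genes tested, and a call needed an adjusted p under 0.01 and a fold change above 2. The procedure was tested on simulated data in which few genes changed, as many up as down and at 24 h only. That setting does not cover data in which as many genes change as here. Log2 levels for correlations used a prior count of 2. Coordinates and lengths came from GENCODE M21 (GRCm38) and promoter windows from RefSeq (GRCm38.p6). No protein sequence was used here. The repressor genes and the gene lists were chosen with earlier results of these data known. Named from each list were the 3 called genes with the largest log2 change at 24 h in each direction that averaged at least 1 CPM, and for each member the 3 genes with the highest r. Any gene named beyond this rule is marked as such, and some genes of the lists are counted but not reported here by name. Replicate numbers did not pair the libraries: deviations from the group means of same-numbered libraries had a mean r of -0.000316 over 45 pairs of time points, ranging from -0.454 to 0.249. Alternatives were DESeq2 1.42.0, other scalings, filters, thresholds and library sets, a replicate block, a test against 2-fold itself, and each library left out in turn.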

Additional observations from a re-analysis of the deposited data

How the results depend on the processing

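Of 1547 values of the members' log2 changes under alternatives, 1529 kept their side of the threshold, 15 fell below it and 3 passed it. No called change reversed its direction. Some small differences that were not called changed sign. Zeb1 from 1 to 2 h went from -0.03 to 0.01 with library totals only. Bcl6 from 6 to 12 h went from 0.01 to as low as -0.11 without single libraries. The 15 and the 3 lay near 2-fold. Bach1 at 18, 21 and 24 h fell to 0.91, 0.93 and 0.91 with library totals only, which left 5 members changed over the time course in place of 6, and Bcl6 at 12 h had values from 0.89 to 1.11 without single libraries. Under a test against 2-fold itself, members up went from 2 to 1 at 6 h (Zeb2 lost), from 4 to 3 at 12 and at 15 h (Bcl6 lost) and from 5 to 4 at 18 h (Bach1 lost), and the called steps of Bcl11a (30 min to 1 h) and Bach2 (2 to 6 h) went from 1 to 0. The Bcl11a step also went to 0 with no filter on low counts (log2 -0.9997). Adding the replicate number as a replicate block left 6 members changed over the time course and 5 up at 24 h, with Bach2 at 3.48, and changed no call of a member or of a list. Since the numbers do not pair the libraries, this says nothing of paired cultures. DESeq2 left the members' counts as they were at the thresholds used, apart from Bcl6 at 12 h (0.99).

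Counts of list genes called moved for small lists. Under the test against 2-fold, BTB zinc fingers went from 1 to 0 down and 2 to 0 up at 2 h and from 2 to 1 down at 24 h. The same test took genes BCL6 represses from 1 to 0 up at 2 h, plasma cell genes from 2 to 1 up at 2 h and 1 to 0 down at 24 h, BLIMP1 genes from 1 to 0 down at 2 h, and epithelial genes from 2 to 0 down at 24 h. With at least 10 counts in every library, which tests fewer genes, genes BCL6 represses went to 0 up (2 h) and 1 up (24 h), plasma cell genes to 1 up (2 h), 0 down (24 h) and 1 up (24 h), BLIMP1 genes to 0 down at 2 h, and epithelial genes to 1 down and 0 up at 24 h. With DESeq2 the plasma cell genes went to 0 down at 24 h, BLIMP1 genes to 0 down at 2 h and epithelial genes to 1 down at 24 h. With library totals only, plasma cell genes went to 2 down and regulators of Bcl6 and Prdm1 from 0 to 1 down at 24 h. At an adjusted p under 0.05 BLIMP1 genes went from 0 to 1 down at 24 h. Leaving out single libraries gave 0 to 1 up at 2 h for genes BCL6 represses (0 without either library of 0 h or the second of 2 h), 0 to 1 down at 24 h for plasma cell genes (0 without the second of 0 h or the first of 24 h), 0 to 0 down at 2 h for BLIMP1 genes (without any of the 4 libraries), and 1 to 2 down at 24 h for epithelial genes (1 without the second of 0 h or either of 24 h).

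Midpoint times on linear CPM were 16.8 h for Bcl6, 12.7 h for Bach1, 16.7 h for Bach2, 0.739 h for Bcl11a, 15.8 h for Zeb2 and 14.8 h for Zbtb20. With library totals only they were 5.15 h for Bcl6, 0.738 h for Bach1, 3.38 h for Bach2, 1.09 h for Bcl11a, 9.74 h for Zeb2 and 8.33 h for Zbtb20. In single replicate series they ranged from 0.998 to 1.00 h for Bcl11a, 10.6 to 13.0 h for Zeb2 and 9.75 to 10.2 h for Zbtb20. Levels at 0 h with library totals only were 0.938 CPM per kb for Bcl6, 1.44 for Bach1, 1.53 for Bach2, 6.78 for Bcl11a, 5.85 for Zeb1, 5.70 for Zeb2 and 1.10 for Zbtb20. Per kb of summed exons they were 3.18 for Bcl6, 7.66 for Bach1, 51.0 for Bach2, 47.2 for Bcl11a, 0.0258 for Prdm1, 99.8 for Zeb1, 36.5 for Zeb2 and 26.2 for Zbtb20. Where no value above shows a cause, the cause was not tested. With 2 libraries per time point no sample could be tested as standing apart from its group. Depth limits Prdm1, where 1 to 9 counts per library allow no comparison.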
